A study of Mus musculus with 48 samples.

Results

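A block of chromosome 4 gave almost no reads in the mouse breast tumour line PyMT-N. It was described through 10 genes, Mtap, Cdkn2a, Cdkn2b, Caap1, Plaa, Ift74, Mysm1, Jun, Nfia and Tm2d1, out of 24054 rows of the deposited count table. All 10 were found in the table by symbol. They were chosen because the PyMT-N libraries held no counts for them, so their PyMT-N values are a description and carry no test. The study profiled total RNA of cultured mouse breast tumour lines and of macrophages and neutrophils sorted from tumours of 4 of those lines. There were 8 lines with 3 libraries each: PyMT-N, PyMT-M, E0771 and AT3 of strain C57BL/6, and T11, 2208L, 67NR and 4T1 of strain BALB/C. PyMT-N was at passage 14, PyMT-M at 7, E0771 at 14, AT3 at 15, 67NR at 19 and the other 3 lines between 15 and 20. All lines grew in high-glucose DMEM with serum and antibiotics, apart from E0771, which grew in RPMI 1640 with HEPES. The table's column for PyMT-N carries another name and was assigned to it because every other column matched another line, so each statement on PyMT-N rests on that assignment. The labels do not say whether a line is 1 clone, and they name no separate cultures or animals, although same-numbered macrophage and neutrophil libraries of a tumour share a number in their column names, so p-values cover the variation among these libraries and no more, and that variation may be technical.

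Macrophages (live CD45+ CD11b+ Ly6G- Ly6C- F4/80+) and neutrophils (live CD45+ CD11b+ Ly6G+ with medium to low Ly6C) came from T11, 2208L, E0771 and AT3 tumours, with 3 libraries of each cell type and tumour. Sorted tumour cells of this kind are cells of the host mouse, and no PyMT-N tumour was sampled. The E0771 macrophage 1 and E0771 neutrophil 1 libraries are labelled BALB/C and the rest of their groups C57BL/6. Over Skint4, Skint3 and Skint9, chromosome 4 rows without a count in the BALB/C lines, those libraries held 7 and 29 counts. Library totals ran from 2058329 to 6262942 counts in lines, from 1862321 to 6240372 in macrophages and from 669862 to 3341097 in neutrophils. The ribosomal row Rn45s took 3.88% to 14.9% of them in lines, 55% to 76.2% in macrophages and 26.8% to 70.3% in neutrophils, which left fewer counts for the members in sorted cells. Levels are in CPM, counts scaled to a common library total with TMM factors, separately for lines and sorted cells, and are not compared between these.

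Mouse chromosome 4 carries the Cdkn2a-Cdkn2b locus, among the most often inactivated tumour suppressor loci of mouse and human tumours. Cdkn2a encodes p16Ink4a, which inhibits the cyclin D kinases, and from another first exon p19Arf, which binds Mdm2 and so stabilises p53. Cdkn2b encodes p15Ink4b, a related kinase inhibitor. Mtap, the next gene, encodes the enzyme that recycles methylthioadenosine, a by-product of polyamine synthesis, into methionine, and the gene is often lost in human tumours together with CDKN2A. Jun, further along, encodes a subunit of the AP-1 transcription factor.

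The promoters of Mtap, Cdkn2a, Cdkn2b and Jun are shown because the first 3 are neighbours, of which Mtap gave counts in all 7 other lines and Cdkn2a and Cdkn2b in 3 of them, and because Jun had the lowest adjusted p of the members among the 7 other lines. Each runs from 250 bases before to 50 bases after the RefSeq start in GRCm38.p6, 5′ to 3′ on the gene's strand. The Cdkn2a entries start 12427 bases apart, entry 1 being the upstream start. Capitals mark the GC box GGGCGG, searched on both strands, except in Jun, where they mark TGACATCA and TTACCTCA, elements known as sites of Jun and ATF proteins in the human JUN promoter, again searched on both strands.
Mtap, chr4:89137120-89137419, plus strand: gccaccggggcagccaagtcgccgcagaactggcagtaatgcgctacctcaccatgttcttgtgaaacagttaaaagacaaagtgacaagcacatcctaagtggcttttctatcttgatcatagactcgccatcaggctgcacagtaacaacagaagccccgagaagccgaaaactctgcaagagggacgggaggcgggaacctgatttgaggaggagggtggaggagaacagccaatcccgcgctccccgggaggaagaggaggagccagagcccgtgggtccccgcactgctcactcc
Cdkn2a entry 1, chr4:89294570-89294869, minus strand: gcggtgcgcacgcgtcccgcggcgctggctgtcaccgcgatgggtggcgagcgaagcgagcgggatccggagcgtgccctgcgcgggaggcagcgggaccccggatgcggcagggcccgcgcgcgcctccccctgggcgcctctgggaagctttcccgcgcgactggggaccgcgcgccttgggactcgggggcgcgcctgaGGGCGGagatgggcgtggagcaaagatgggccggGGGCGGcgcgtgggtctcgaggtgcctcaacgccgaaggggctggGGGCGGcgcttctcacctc
Cdkn2a entry 2, chr4:89282143-89282442, minus strand: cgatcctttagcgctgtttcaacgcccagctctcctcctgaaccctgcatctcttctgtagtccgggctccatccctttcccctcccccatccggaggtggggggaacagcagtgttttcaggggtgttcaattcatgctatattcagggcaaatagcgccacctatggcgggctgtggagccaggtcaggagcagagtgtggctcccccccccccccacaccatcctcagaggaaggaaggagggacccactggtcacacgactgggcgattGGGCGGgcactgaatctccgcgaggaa
Cdkn2b, chr4:89310983-89311282, minus strand: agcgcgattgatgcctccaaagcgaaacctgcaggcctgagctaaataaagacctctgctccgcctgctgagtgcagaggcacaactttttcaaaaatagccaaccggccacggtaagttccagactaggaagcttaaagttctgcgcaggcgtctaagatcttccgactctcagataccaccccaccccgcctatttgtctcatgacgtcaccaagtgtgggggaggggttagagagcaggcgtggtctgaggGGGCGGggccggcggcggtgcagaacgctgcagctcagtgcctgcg
Jun, chr4:95052173-95052472, minus strand: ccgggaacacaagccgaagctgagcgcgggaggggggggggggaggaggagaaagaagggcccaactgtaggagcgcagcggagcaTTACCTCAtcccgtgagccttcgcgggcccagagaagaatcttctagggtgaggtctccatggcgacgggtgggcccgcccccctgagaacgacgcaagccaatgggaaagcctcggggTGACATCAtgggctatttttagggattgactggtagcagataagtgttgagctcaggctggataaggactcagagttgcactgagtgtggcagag
The Cdkn2a entry 1 promoter held 45 CG dinucleotides, more than 98.1% of the 32851 promoters of the table, whose median was 7. The Cdkn2a entry 2 promoter held 12, that of Cdkn2b 18, that of Mtap 14 and that of Jun 15. The GC box occurred 3 times in Cdkn2a entry 1, 1 time in each of Cdkn2a entry 2 and Cdkn2b and 0 times in Mtap, and 35.7% of all promoters held it. Jun also held 1 GC box, left in lower case. TGACATCA was in 3.62% of all promoters and TTACCTCA in 0.889%. These are matches of letters, and no methylation or binding was measured. Of the 10 members, 9 had a promoter entry, and Tm2d1 was not among them.

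The silent stretch of PyMT-N covered every row from Mtap to Tm2d1 but 1. Between the start of Mtap at 89137370 and the end of Tm2d1 at 98383265 on chromosome 4 (GRCm38, 9.25 Mb), the table places 35 rows, the 10 members and 25 others. In PyMT-N, 34 of the 35 had 0 counts over the 3 libraries, which held 14286010 counts outside Rn45s. From 3 counts over the group, a count of 0 allows up to 0.249 CPM (TMM-scaled), or 0.21 CPM of the counts outside Rn45s. These limits cover counting error only. The exception was Gm12657, a predicted gene inside the Plaa interval, with 4 counts in PyMT-N against 6 to 18 in the other lines. The 7 other lines had counts in 31 (4T1) to 34 (2208L and 67NR) of the rows.

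Summed over the 35 rows, PyMT-N had 0.28 CPM (of the counts outside Rn45s), against 649 (2208L) to 1272 (67NR) in the other lines. The 25 rows that are not members gave 0.28 CPM in PyMT-N and 53.7 (PyMT-M) to 182 (67NR) in the other lines. The members were chosen by their PyMT-N counts of 0, and these 25 rows were taken for lying between the outermost members. The stretch was thus selected on PyMT-N counts, so the PyMT-N values of these rows are also a description and carry no test. Many of these rows sat at a low level in the other lines. The endothelial receptor Tek had 0 counts in PyMT-N against 42 to 173, Elavl2, a neuronal RNA-binding protein gene, 0 against 17 to 72, and Cyp2j6, of a cytochrome P450 cluster, 0 against 24 to 342. The sugar kinase gene Fggy had 0 in PyMT-N against 36 to 817, and Hook1, a microtubule tether gene, 0 against 28 to 608. Thus PyMT-N had no counts in rows that were well covered elsewhere, and nearly none in rows with low counts in the other lines. Low counts were also fewer in PyMT-N outside the block. There 1435 olfactory and vomeronasal receptor genes took 617 to 851 CPM outside Rn45s in PyMT-N libraries, against 921 to 2957 in those of the other lines. The part of this lower background in the low rows was not tested.

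**Figure D1:**
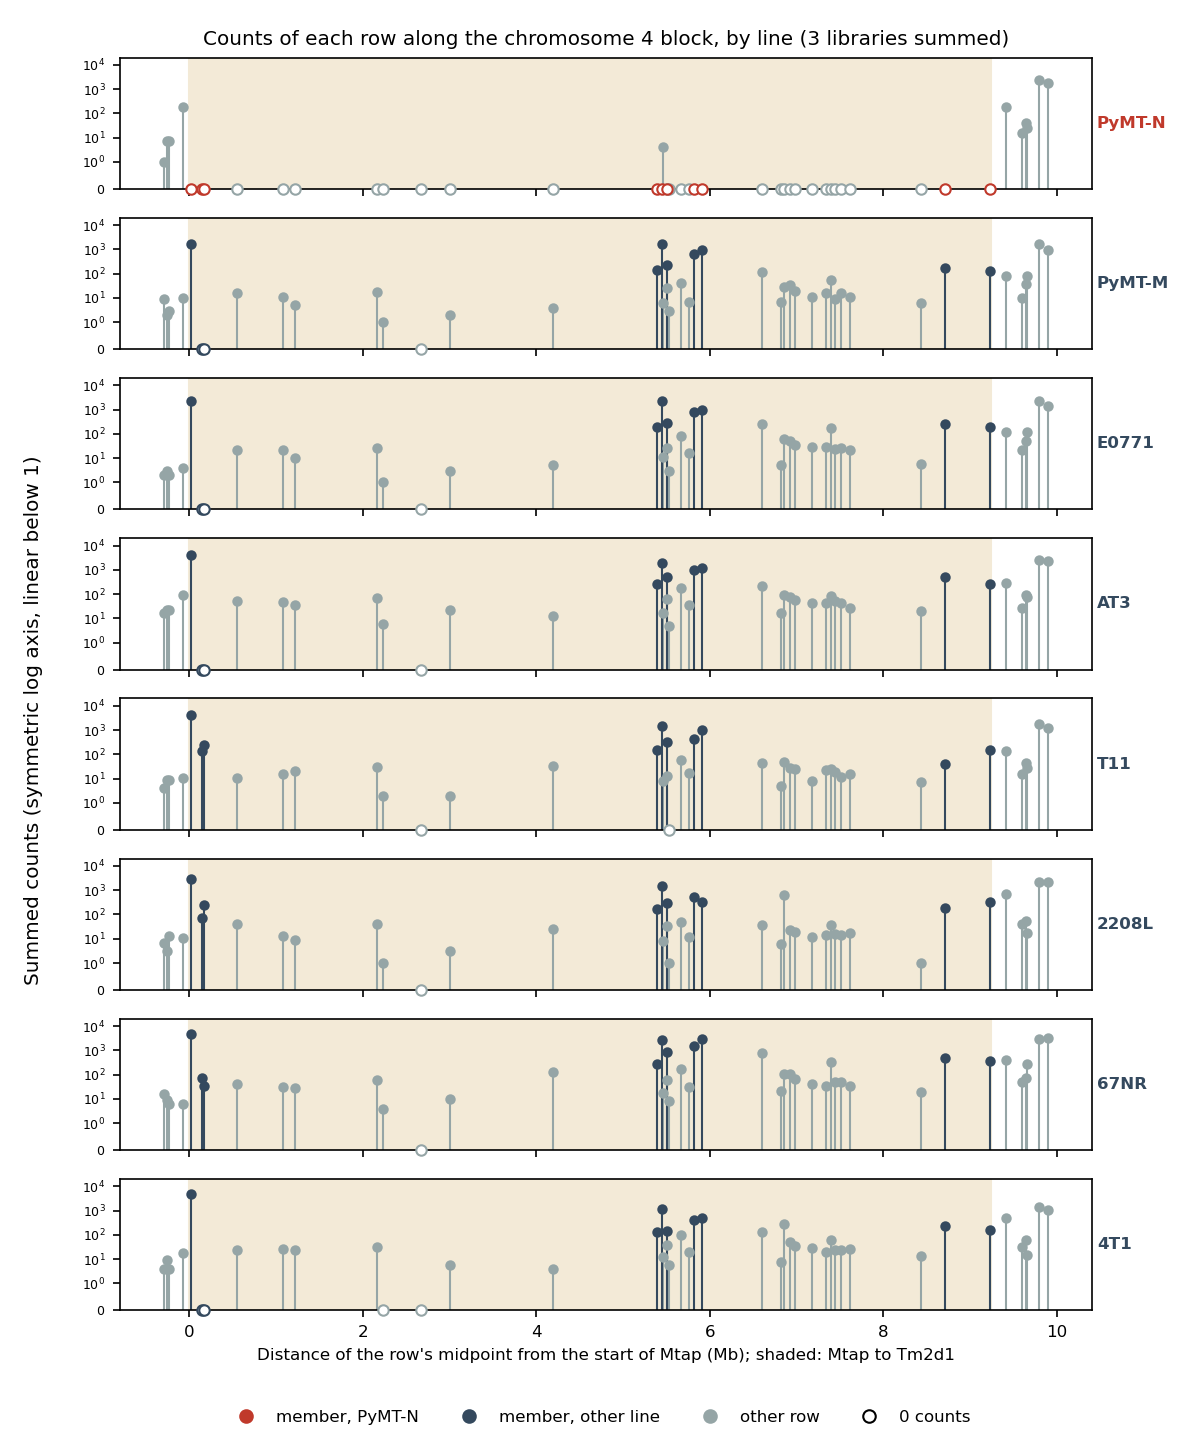
Summed counts of the 3 libraries of each line for the rows placed along this part of chromosome 4, by distance of the row's midpoint from the start of Mtap in Mb, on a log axis that is linear below 1, PyMT-N above the 7 other lines; open points are rows with 0 counts and the shaded stretch runs from Mtap to Tm2d1. PyMT-N has 34 of 35 rows from Mtap to Tm2d1 at 0, while the rows on either side have counts.

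The edges were sharp at the resolution of annotated rows. Gm12603, a predicted gene whose end lies 52.8 kb before Mtap, had 84, 44 and 50 counts in the PyMT-N libraries, and at 14.5 ± 2.25 CPM (SD, n = 3) it lay above the other line means of 0.287 to 5.97 CPM. Inadl, a cell polarity gene that starts 12.3 kb after Tm2d1, had 62, 45 and 70 counts, 14.8 ± 2.53 CPM, inside the other lines' range of 8.52 to 57.4. Just inside the block, Mtap and Tm2d1 had 0 counts in PyMT-N, against 1617 (PyMT-M) to 5020 (4T1) for Mtap and 123 (PyMT-M) to 352 (67NR) for Tm2d1.

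No other line had a stretch of this length. Among rows with at least 5 CPM in each of the lines compared with, 7 of 9052 (0.0773%) were at 0 in PyMT-N, namely Mtap, Caap1, Plaa, Ift74, Mysm1, Jun and Tm2d1, and all 7 are members. The same rule gave 0 rows for each of the 7 other lines. At a level of 1 CPM it gave 22 rows of 16146 in PyMT-N, all inside the block, and still 0 in the others. For another line, however, the rule asks for this level in PyMT-N too. Rows at 0 in PyMT-N, Cdkn2a and Cdkn2b included, could therefore not count for any other line. The members were also chosen for 0 counts in PyMT-N, so this rule cannot compare the lines within the block. Among rows with at least 50 counts over the lines compared with, a rule added after the data were seen, PyMT-N had runs of 20 (Ift74 to Tm2d1) and 10 (Mtap to Plaa) neighbouring rows at 0, parted by Gm12657. The longest runs elsewhere were 2 rows, Cdkn2a and Cdkn2b, in PyMT-M, E0771 and AT3, and 3 rows, Skint4, Skint3 and Skint9, in T11, 2208L, 67NR and 4T1. In AT3 the Cdkn2a and Cdkn2b rows were the only 2 of 20599 at 0.

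Genes beside the block were expressed in PyMT-N, and their differences from the other lines went both ways. Differences were tested with the edgeR quasi-likelihood test on the 24 line libraries, PyMT-N minus the mean of the 7 other lines, with Benjamini-Hochberg adjustment over 18348 genes and a call at an adjusted p below 0.05. Within 10 Mb before Mtap the median log2 difference of 27 genes was 0.13, and within 10 Mb after Tm2d1 that of 72 genes was -0.12, beside -0.09 over all genes tested. Of the 27 genes 12 were higher and 9 lower in PyMT-N, and of the 72 genes 18 were higher and 19 lower, where 57.3% of all genes were called. Before the block, Focad, described as a tumour suppressor gene in human glioma, fell to 31.1 ± 0.693 CPM in PyMT-N, against line means of 43.2 to 76.8 (log2 -0.91 ± 0.09, SE, edgeR adjusted p = 8.05e-15), and Slc24a2, an ion exchanger gene, by 0.89 ± 0.19 (edgeR adjusted p = 2.89e-05). Mllt3, a subunit gene of an elongation complex, differed by -0.41 ± 0.09 (edgeR adjusted p = 5.29e-05), Rps6, a ribosomal protein gene, by 0.29 ± 0.08 (edgeR adjusted p = 0.000516) and Klhl9, a ubiquitin ligase adaptor gene 415 kb from Mtap, by 0.13 ± 0.07 (edgeR adjusted p = 0.104). After the block, Inadl differed by -0.53 ± 0.13 (edgeR adjusted p = 0.000257) and Usp1, a deubiquitinase gene, by 0.17 ± 0.07 (edgeR adjusted p = 0.0259), a call lost without PyMT-N library 1 (edgeR adjusted p = 0.0891) or 2 (0.0534). Atg4c and Alg6 did not pass, at 0.07 and 0.05. Set against the C57BL/6 lines alone, Mllt3 (0.03) and Inadl (0.38) turned to the other sign and Rps6 (0.13) was no longer called, and set against PyMT-M alone Mllt3 gave 0.71 and Inadl 0.79.

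Among the 7 other lines, which the choice of members did not use apart from the contrast with PyMT-N, the members followed no common order. All 10 differed among these lines (edgeR quasi-likelihood F test, adjusted over 17692 genes), where 86.7% of all genes tested did, so the count is near the background. The 21 pairs of these lines were then compared, and the share of all tested genes called in a pair ran from 7.49% for PyMT-M against E0771 to 60.8% for PyMT-M against 4T1. PyMT-M gave 49.6% against AT3, 41.8% against T11, 48.3% against 2208L and 52.3% against 67NR. E0771, the line most like it by this count, gave 47% against AT3, 41.9% against T11, 49.8% against 2208L, 51.5% against 67NR and 57.9% against 4T1. AT3 gave 39.6% against T11, 53.3% against 2208L, 48.7% against 67NR and 39.5% against 4T1. Apart from PyMT-M against E0771, the pairs thus lay between 39.5% and 60.8%. Among the BALB/C lines T11 gave 42.9% against 2208L, 44.9% against 67NR and 44.2% against 4T1, 2208L gave 50.4% against 67NR and 54.5% against 4T1, and 67NR gave 49.3% against 4T1. The plot of the members in every line library shows the levels described next.

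Mtap (ENSMUSG00000062937.7, chr4:89137370-89181090, plus strand) had 0 counts in each PyMT-N library. It averaged 562 ± 45.2 CPM in 4T1 (614, 532 and 541) and 499 ± 22.4 in T11 (518, 505 and 475), the highest lines. 67NR had 319 ± 8.24 CPM, AT3 266 ± 30.1, 2208L 250 ± 10.1, PyMT-M 178 ± 3.73 and E0771 162 ± 4.87 (SD, n = 3 each). Every library of 4T1 and T11 lay above every library of the other lines. Mtap was thus at least 653-fold lower in PyMT-N than in E0771, the lowest of the others, taking 3 counts over the group as the bound. Of the 21 pairs, 18 were called, and the neighbours in the order that were not were 4T1 over T11 (edgeR adjusted p = 0.053), AT3 over 2208L (0.417) and PyMT-M over E0771 (0.417). The 4T1 mean was 3.46 times that of E0771.

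Cdkn2a and Cdkn2b were silent in 5 lines and not in PyMT-N alone. Cdkn2a (ENSMUSG00000044303.6, chr4:89274473-89294619, minus strand) had 39, 62 and 37 counts in T11, 21, 21 and 27 in 2208L, and 23, 29 and 18 in 67NR. PyMT-N, PyMT-M, E0771, AT3 and 4T1 had 0 counts in each library. The row joins transcripts from both first exons, so p16Ink4a and p19Arf cannot be told apart in it. Cdkn2b (ENSMUSG00000073802.5, chr4:89306289-89311032, minus strand) had 97, 81 and 56 counts in T11, 101, 63 and 72 in 2208L and 10, 15 and 9 in 67NR. The same 5 lines had 0 counts of Cdkn2b in each library.

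In CPM, Cdkn2a averaged 16.2 ± 3.25 in T11, 6.06 ± 1.27 in 2208L and 4.86 ± 0.932 in 67NR, and Cdkn2b averaged 27.3 ± 3.48, 20.2 ± 1.84 and 2.36 ± 0.59 in the same lines (SD, n = 3 each). Both genes had the order T11, 2208L, 67NR, and differed in which step was called: Cdkn2a was higher in T11 than in 2208L (log2 1.43 ± 0.27, edgeR adjusted p = 8.39e-06), whereas 2208L over 67NR did not pass (0.28 ± 0.30, edgeR adjusted p = 0.457). Cdkn2b was higher in 2208L than in 67NR (3.07 ± 0.26, edgeR adjusted p = 1.02e-16), whereas T11 over 2208L did not pass (0.44 ± 0.19, edgeR adjusted p = 0.0561). That is, 67NR had Cdkn2a at a level near that of 2208L and Cdkn2b well under it. T11 and 2208L are known as lines from Trp53-null mammary tumours, whereas the labels give no Trp53 genotype. The part of strain in these levels cannot be told apart from line: the 3 lines with counts are BALB/C, and 4T1, the other BALB/C line, had none.

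PyMT-M, E0771, AT3 and 4T1 differed from PyMT-N in how far the silence reached. In these 4 lines it took in the 36.6 kb from the start of Cdkn2a to the end of Cdkn2b. Mtap, which ends 93.4 kb away, had 162 to 562 CPM there, and Dmrta1, a transcription factor gene 377 kb beyond Cdkn2b, had 16, 21, 50 and 24 counts in PyMT-M, E0771, AT3 and 4T1. In PyMT-N both flanking genes had 0. Whether DNA is missing or the genes are unexpressed was not measured in any line.

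**Figure D2:**
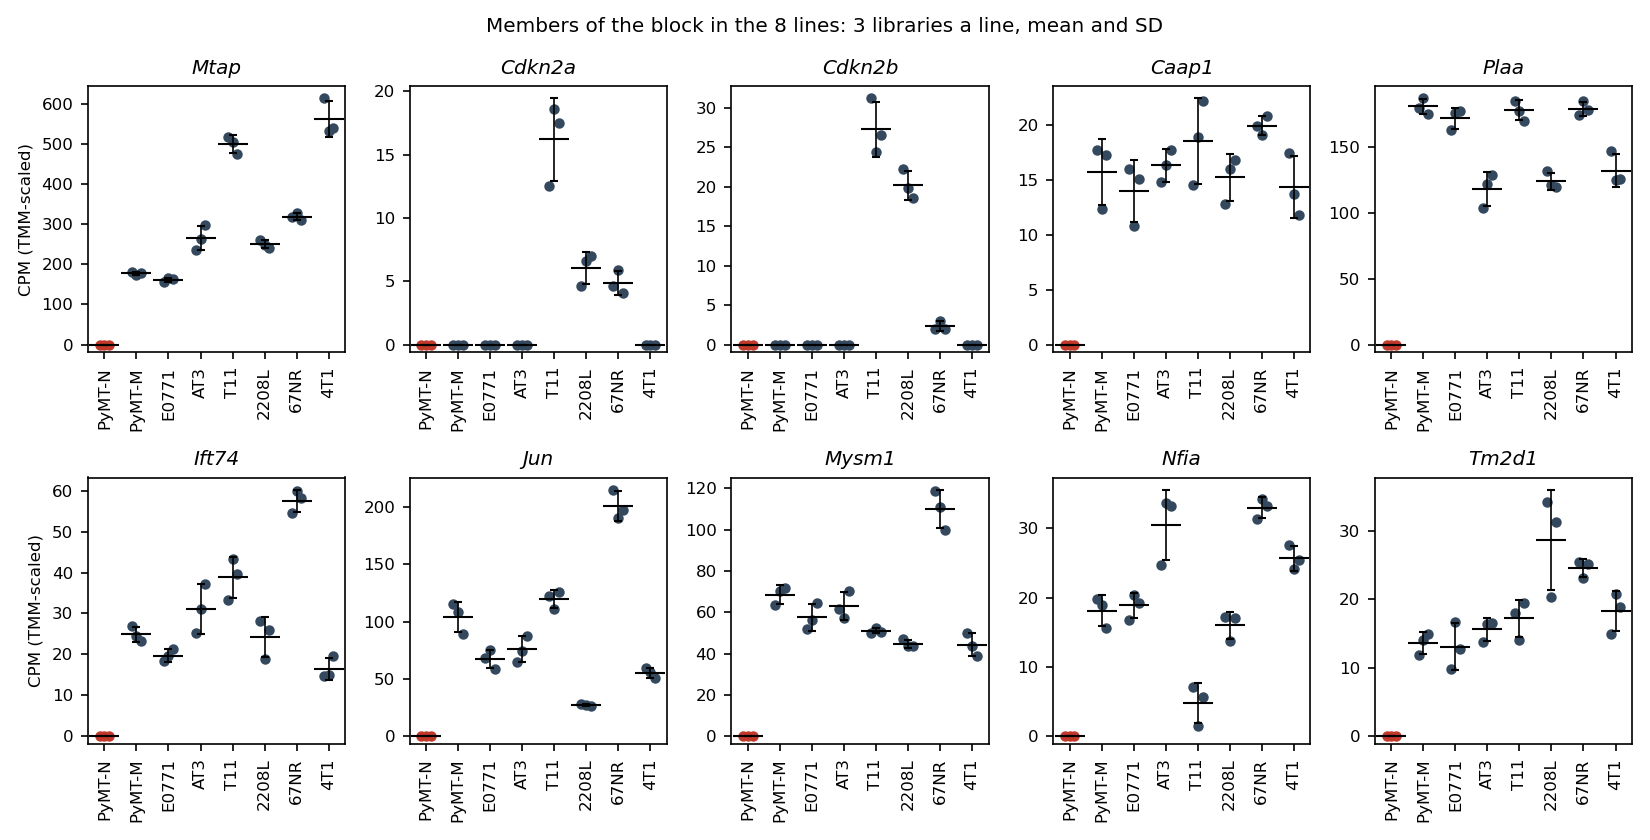
Level of each of the 10 members in every line library, in CPM on a linear axis of its own for each gene, PyMT-N leftmost and then the 7 other lines; points are libraries, horizontal lines the means of 3 and error bars the SD. Every member is at 0 in PyMT-N, Cdkn2a and Cdkn2b are at 0 in 5 lines, and the other 8 members have counts in each of the 7 other lines.

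Jun (ENSMUSG00000052684.4, chr4:95049036-95052222, minus strand), whose promoter is printed with its Jun and ATF elements in capitals, had 0 counts in each PyMT-N library. It was highest in 67NR at 201 ± 12.9 CPM (215, 190 and 197) and lowest in 2208L at 27 ± 0.915 (27.9, 27 and 26.1), a ratio of 7.43. Between them T11 had 120 ± 7.78 CPM, PyMT-M 104 ± 13.4, AT3 75.8 ± 11.3, E0771 67.2 ± 8.03 and 4T1 55.3 ± 4.53 (SD, n = 3 each). No library of another line reached those of 67NR, and none fell to those of 2208L. Jun was at least 109-fold lower in PyMT-N than in 2208L. Of the 21 pairs 19 were called, and T11 over PyMT-M (edgeR adjusted p = 0.129) and AT3 over E0771 (0.178) were not. The lines 67NR and 4T1 differed by 1.85 ± 0.11 on the log2 scale (edgeR adjusted p = 4.76e-26), and T11 was above 2208L by 2.15 ± 0.12 (edgeR adjusted p = 1.12e-26).

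Nfia (chr4:97578066-98118876, plus strand), a transcription factor gene of the nuclear factor I family, had 0 counts in PyMT-N. It averaged 33 ± 1.48 CPM in 67NR, 30.5 ± 5.08 in AT3 and 25.7 ± 1.79 in 4T1. T11 was the lowest of the others at 4.75 ± 2.9 CPM, with libraries at 7.07, 1.5 and 5.68. Every T11 library lay under every library of the 6 lines above it. The nearest of these, 2208L at 16 ± 1.91 CPM, was higher than T11 by 1.81 ± 0.25 on the log2 scale (edgeR adjusted p = 4.6e-09).

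Mysm1 (chr4:94942037-94979155, minus strand), which encodes a deubiquitinase of histone H2A, had 0 counts in PyMT-N and lay between 44.3 ± 5.68 CPM in 4T1 and 110 ± 9.36 in 67NR. The 3 libraries of 67NR, at 119, 111 and 100, were above all others. Of its 6 pairs of neighbours in the order, 5 were not called, 67NR over PyMT-M being the exception. Ift74 (chr4:94603266-94693233, plus strand), which encodes a protein of the transport complex that builds cilia, had 0 counts in PyMT-N. It averaged 57.5 ± 2.75 CPM in 67NR (54.5, 59.9 and 58.3) and 16.4 ± 2.75 in 4T1 (14.6, 15 and 19.5). 67NR again did not overlap with any other line.

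Plaa (chr4:94565139-94603247, minus strand), whose protein works with the p97 segregase on ubiquitinated proteins, varied little. It had 0 counts in PyMT-N and ran from 118 ± 12.8 CPM in AT3 (104, 122 and 129) to 181 ± 5.66 in PyMT-M (180, 187 and 175), a ratio of 1.53. The row lies head to head with Ift74, and no strand is given for the counts, so reads near their shared start may belong to either. Caap1 (chr4:94500079-94556796, minus strand), named for its role in caspase activity and apoptosis, was the most even member, from 14 ± 2.81 CPM in E0771 to 19.9 ± 0.85 in 67NR, with 3 of 21 pairs called. Its difference among the 7 lines (edgeR adjusted p = 0.0296) was not called by DESeq2 (adjusted p = 0.0986). It also missed the edgeR threshold without 4T1 library 3 (adjusted p = 0.0517), 67NR library 1 (0.0786), 2 (0.053) or 3 (0.102), or E0771 library 2 (0.074). Tm2d1 (chr4:98355370-98383265, minus strand), a membrane protein gene, had 0 counts in PyMT-N and ran from 13.1 ± 3.44 CPM in E0771 to 28.7 ± 7.32 in 2208L, whose libraries at 34.3, 20.4 and 31.3 were spread the widest.

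67NR was the highest line for Caap1, Ift74, Jun, Mysm1 and Nfia, T11 for Cdkn2a and Cdkn2b, 4T1 for Mtap, PyMT-M for Plaa and 2208L for Tm2d1. For Mtap, Cdkn2b, Caap1, Plaa, Nfia and Tm2d1 the step from the highest line to the next was not called. Of the pairs of lines, 14 were called for Mysm1, 16 for Ift74, 15 for Nfia and 12 each for Plaa and Tm2d1. The genes outside chromosome 4 whose 8 line means followed the mean of the members most closely on the log2(CPM + 1) scale were Rcn1 (Pearson r 0.980), Amigo1 (0.955), Camk2d (0.952), Per2 (0.933) and Pgm2l1 (0.931). With PyMT-N the low point by choice, these rest largely on that line: Rcn1 had 10.2 CPM in PyMT-N against 74 to 138 in the others. Over the 7 other lines, Mfsd8 (0.992), Rexo2 (0.986) and Me1 (0.984) were most like Cdkn2a. As Cdkn2a had counts only in T11, 2208L and 67NR, these values rest largely on those lines against lines at 0. The genes were picked as the highest correlations of many, and none was tested.

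Genes known to act with the members were then compared in PyMT-N with the 7 other lines, in 13 lists. In this comparison 57.3% of the 18348 genes tested were called, 31.6% higher and 25.7% lower in PyMT-N. PyMT-N thus differs from the mean of the others in most genes, and no list can be tied to the block by this comparison. PyMT-N also had the highest sum of 6 epithelial marker genes, all 6 detected, at 4832 to 5134 CPM, against 4064 to 4365 in 2208L, 2086 to 2370 in 4T1 and 15.6 to 157 in the other 5 lines. The part of these markers in the lists was not tested.

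p53 target genes, downstream of p19Arf, were mostly higher in PyMT-N, 1 of the 5 lines with no Cdkn2a counts. Of 25 tested, 21 rose, 1 fell and 3 did not pass, with a median log2 difference of 1.31, beside -0.09 over all genes. Cdkn1a, the kinase inhibitor p21, had 168, 135 and 138 CPM in PyMT-N, against line means of 5.33 (4T1) to 87.7 (67NR), so its PyMT-N libraries lay above every other line mean (log2 3.15 ± 0.08, edgeR adjusted p = 2.19e-53). Perp, a desmosome and apoptosis gene, averaged 483 ± 11.7 CPM in PyMT-N against 0.965 (E0771) to 417 (2208L) (5.68 ± 0.07, edgeR adjusted p = 5.98e-76). Trp53inp1, a p53 cofactor gene, differed by 3.38 ± 0.08 (edgeR adjusted p = 4.99e-55) and Plk2, a stress kinase gene, by 3.06 ± 0.06 (edgeR adjusted p = 7.42e-63). Mdm2, which encodes the ligase that p19Arf binds, and Ccng1 were higher by 2.42 ± 0.06 and 2.49 ± 0.06, chosen after their values were seen. Sesn1, a stress sensor gene, was the 1 that fell, by 1.04 ± 0.15 on the log2 scale. The 7 lines include T11 and 2208L, given above as lines from Trp53-null tumours. They also include PyMT-M, E0771, AT3 and 4T1, which had no Cdkn2a counts either. The comparison thus does not set lines with Cdkn2a counts against lines without. Set against the C57BL/6 lines alone, 21 were higher and 2 lower, and against PyMT-M alone 20 were higher and 2 lower.

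Of the cell cycle genes that p15 and p16 act on or resemble, 5 of 12 tested rose, 3 fell and 4 did not pass (median 0.11). Apart from Cdkn1a, Ccnd1, a cyclin D gene, had 1417 ± 18.5 CPM in PyMT-N against 247 (AT3) to 1426 (67NR) (log2 1.37 ± 0.06, edgeR adjusted p = 2.34e-37), and Rb1, the pocket protein below it, was higher by 0.72 ± 0.11. Cdkn2d, another INK4 inhibitor, fell by 0.88 ± 0.15 on the log2 scale (edgeR adjusted p = 6.82e-07), at 8.85 ± 2.64 CPM in PyMT-N against 12.4 to 27, and was not called against PyMT-M alone (-0.44, edgeR adjusted p = 0.0884). Without PyMT-N library 1, 3 of the list rose. Of 23 E2F target genes, which drive DNA synthesis, 5 rose, 9 fell and 9 did not pass (median -0.17). Ccne1 (1.23 ± 0.08) and Cdc25a (0.78 ± 0.08) were higher, and Ccna2 (-0.60 ± 0.07) lower, but Ccne1 was at 0.15 against PyMT-M alone and not called (edgeR adjusted p = 0.27). Against the C57BL/6 lines alone 14 of the E2F targets fell, and against PyMT-M alone 15 did.

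Of the methionine salvage and polyamine genes, which lie on either side of the Mtap step, 9 of 14 tested rose, 2 fell and 3 did not pass (median 0.35). Odc1, the first enzyme of polyamine synthesis, had 2128, 2244 and 2302 CPM in PyMT-N, against line means of 420 (2208L) to 1071 (E0771) (log2 1.74 ± 0.05, edgeR adjusted p = 1.62e-47). Smox, a spermine oxidase gene, was higher by 2.23 ± 0.08 and Sat1, a polyamine acetyltransferase gene, by 0.83 ± 0.08. Ahcy, of the methyl cycle, was higher by 1.14 ± 0.07 against the 7 lines but differed by -0.39 from PyMT-M alone. Against PyMT-M alone 5 rose and 7 fell, so the direction of this list depended on the reference. The complex of the methyltransferase Prmt5, which methylthioadenosine inhibits, had 3 of 5 genes higher and 1 lower: Prmt5 0.61 ± 0.07, Clns1a 0.19 ± 0.07, Wdr77 0.18 ± 0.07 and Coprs -0.93 ± 0.15. Without PyMT-N library 1, 1 of them rose, and against PyMT-M alone 3 fell, Prmt5 giving 0.01.

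AP-1 target genes were the list with the highest median, 2.31, in the line with no Jun counts. Of 18 tested, 16 rose, and 2, Mmp1a and Il6, did not pass. Mmp13, a collagenase gene, had 142, 128 and 139 CPM in PyMT-N, against line means of 1.88 (T11) to 7.38 (PyMT-M) (log2 5.05 ± 0.09, edgeR adjusted p = 2.4e-64). Itga2, a collagen receptor subunit gene, differed by 4.66 ± 0.07, and the metalloproteinase genes Mmp9 and Mmp3 by 4.58 ± 0.09 and 4.32 ± 0.08. All 4 were above the highest other line mean. Of 16 genes of the AP-1 family and its kinases, 10 rose, 4 fell and 2 did not pass (median 0.58). Junb, a relative of Jun with the same kind of dimer partners, had 153, 172 and 176 CPM in PyMT-N, against 10.7 (AT3) to 115 (2208L) (2.41 ± 0.07, edgeR adjusted p = 1.57e-50). Atf3 was higher by 1.98 ± 0.12, Fosl2 by 1.11 ± 0.07 and Jund by 1.06 ± 0.09. The 4 that fell were Fosl1, Batf, Batf2 and Jdp2, by 0.99, 2.83, 1.12 and 0.71 on the log2 scale.

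Paralogs of Nfia did not move one way. Nfib rose by 1.61 ± 0.06 (350 ± 2.16 CPM in PyMT-N against 45.5 to 417, edgeR adjusted p = 1.49e-41) and Nfix by 0.43 ± 0.09, and Nfic fell by 0.29 ± 0.09 on the log2 scale, a call lost without PyMT-N library 1 (-0.23), against the C57BL/6 lines alone (-0.06) and against PyMT-M alone (-0.17). Of 17 partners of Ift74 in intraflagellar transport complex B, 4 rose, 2 fell and 11 did not pass (median 0.02), or 35.3% called. Ift88 was at 0.68 ± 0.11 and Ift80 at -0.42 ± 0.09, and Ift80 had the other sign (0.40) against PyMT-M alone. Against the C57BL/6 lines alone, and against PyMT-M alone, 7 of the complex B genes rose and 0 fell. The count higher was 2 without PyMT-N library 2, and the count lower was 1 without 4T1 library 1, PyMT-N library 1 or PyMT-N library 3. Complex A had 2 higher, 1 lower and 3 not called of 6, with Wdr35 at 1.13 ± 0.08. Among 9 genes of p97 and its ubiquitin adaptors, which work with Plaa, 7 rose and 2 did not pass (median 0.29), with Vcp, p97 itself, at 490 ± 10.7 CPM in PyMT-N against 265 to 355 (0.64 ± 0.06, edgeR adjusted p = 2.51e-16). Of 9 enzymes of histone H2A ubiquitin beside Mysm1, 6 rose and 1 fell (median 0.28). Usp22 was at 0.60 ± 0.07, and Bmi1 fell by 0.54 ± 0.07 on the log2 scale. Against the C57BL/6 lines alone, and against PyMT-M alone, 2 of the 9 rose and 1 fell. Tm2d2 and Tm2d3, the paralogs of Tm2d1, differed by 0.09 ± 0.09 (edgeR adjusted p = 0.367) and 0.26 ± 0.16 (edgeR adjusted p = 0.154).

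**Figure D3:**
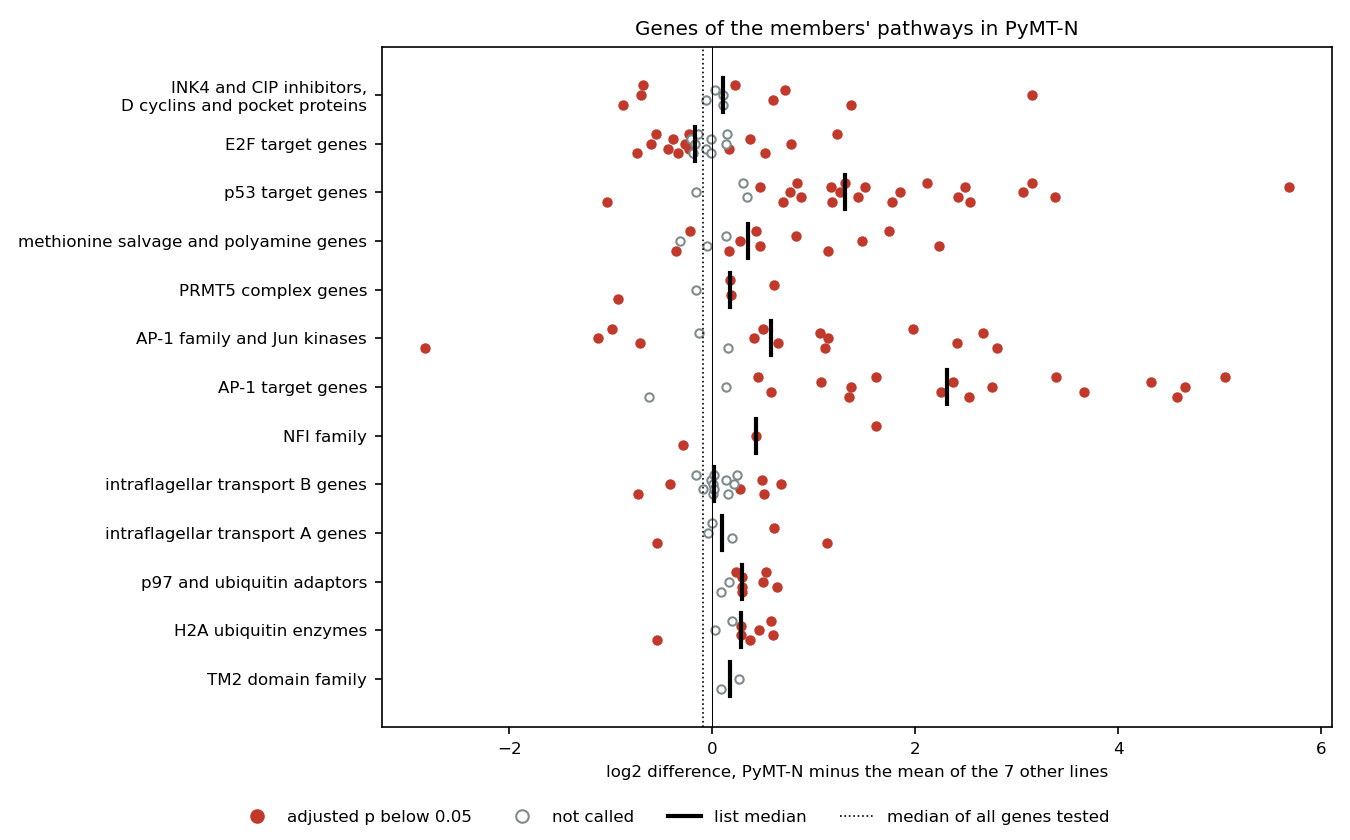
Log2 difference of PyMT-N from the mean of the 7 other lines for the tested genes of the 13 lists, 1 point per gene, with the list's median as a bar; filled points are genes called at an adjusted p below 0.05 and open points are not called. AP-1 targets (median 2.31) and p53 targets (1.31) lie furthest from the median of all genes tested, -0.09.

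In sorted cells the members were measured in host cells that the choice did not use, but the T11 macrophage libraries went against their label in part. They held 3616, 4456 and 1595 CPM of 8 neutrophil marker genes, 7 of 8 of them in every library, against 1611, 515 and 769 CPM in T11 neutrophils. The macrophages of the other 3 tumours had 72.8 to 164 CPM and their neutrophils 1626 to 10360. Macrophage markers summed to 2651 to 9206 CPM in macrophages and 121 to 1768 in neutrophils. Tests on sorted cells are therefore given with and without the 6 T11 libraries, an alternative added after these values were seen. In bulk libraries, fewer cells of a type and less RNA per cell cannot be told apart.

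All 10 members gave counts in both cell types, and 8 passed the filter on low counts. As the mean of the 4 within-tumour differences, 2 of the 8 were higher in macrophages than in neutrophils, Mtap and Plaa, where 76% of the 20364 genes tested were called, 30.3% higher and 45.7% lower. Mtap had 5.37 to 29 CPM in macrophages, median 19.5, against 5.25 to 15.1 in neutrophils, median 8.84 (18.1 ± 8.14 and 9.22 ± 2.91 CPM, SD, n = 12 each). The groups overlapped, and the log2 difference was 0.87 ± 0.19 (edgeR adjusted p = 8.25e-05). Without T11 it was 0.41 ± 0.23 (edgeR adjusted p = 0.127). Plaa had 4.23 to 26.3 CPM in macrophages, median 22.6, and 7.25 to 23.6 in neutrophils, median 14.1, a difference of 0.43 ± 0.19 (edgeR adjusted p = 0.0342). Without T11 it was 0.17 ± 0.23 (edgeR adjusted p = 0.53), so neither was called without T11, where 57.6% of genes were. Jun alone then had an unadjusted p under 0.05 (0.0361). The Plaa call was also lost without 2208L macrophage library 2 (edgeR adjusted p = 0.101), AT3 macrophage library 2 (0.0534) or 3 (0.0535), AT3 neutrophil library 1 (0.192), E0771 macrophage library 3 (0.105), E0771 neutrophil library 2 (0.073), or T11 neutrophil library 1 (0.113) or 3 (0.127).

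The scale between cell types moved these values. With DESeq2 size factors in place of TMM the median of all genes shifted by -0.36, and Plaa stood at 0.07 (edgeR adjusted p = 0.723), while Nfia became lower in macrophages at -0.59 (edgeR adjusted p = 0.0136). DESeq2 gave the same differences for Plaa and Nfia, with adjusted p of 0.733 and 0.0188. Relative to the median of all genes, Mtap stood at 1.41 and Plaa at 0.97 under both scalings. Higher calls were 39.9% of all calls with TMM and 28.6% with DESeq2 size factors.

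The mean difference of Jun between the cell types was near 0, while its libraries varied widely. It had 105 to 259 CPM in macrophages, median 169, against 24.2 to 706 in neutrophils, median 173 (log2 -0.01 ± 0.21, edgeR adjusted p = 0.953). Without T11 the difference was -0.50 ± 0.23 (edgeR adjusted p = 0.0604). Mysm1, which is required for blood cell development in mice, had 30 ± 9.13 CPM in macrophages and 26.8 ± 8.65 in neutrophils (0.16 ± 0.15, edgeR adjusted p = 0.352). Tm2d1 differed by 0.50 ± 0.29 (edgeR adjusted p = 0.113), Nfia by -0.23 ± 0.22 (0.324), Ift74 by 0.04 ± 0.28 (0.888) and Cdkn2b by 0.02 ± 0.36 (0.965). Without T11 the differences were -0.03 for Mysm1, 0.26 for Tm2d1, -0.38 for Nfia and -0.23 for Ift74, so Mysm1 and Ift74 took the other sign, and none was called. Cdkn2b did not pass the count filter without T11. With DESeq2 size factors Mysm1 (-0.20), Ift74 (-0.32) and Cdkn2b (-0.34) took the other sign, also uncalled. The errors leave room for differences of the size seen for Plaa.

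Cdkn2a and Caap1 were close to the background of the sorted libraries. Cdkn2a had 23 counts over the 12 macrophage libraries and 32 over the 12 neutrophil libraries, and Caap1 had 28 and 34. As a measure of that background, 1435 olfactory and vomeronasal receptor genes, which these cells are not known to use, took 868 to 3239 CPM outside Rn45s in macrophages and 3849 to 18833 in neutrophils. Per base of exon, Cdkn2a was at 1.02 to 6.3 times the receptor genes' level in macrophages and 1.2 to 2.85 times in neutrophils, over the 4 tumours. Caap1 was at 1.35 to 2.32 and 0.21 to 1.14 times, and Cdkn2b at 3.19 to 14.6 and 0.844 to 5.61 times. By the same measure Jun stood well above background, at 237 to 604 times in macrophages and 33.6 to 241 times in neutrophils, and Mtap at 14.2 to 64.8 and 3.7 to 8.3 times. The sorted E0771 and AT3 libraries had low counts of Cdkn2a and Cdkn2b although the E0771 and AT3 lines had none.

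**Figure D4:**
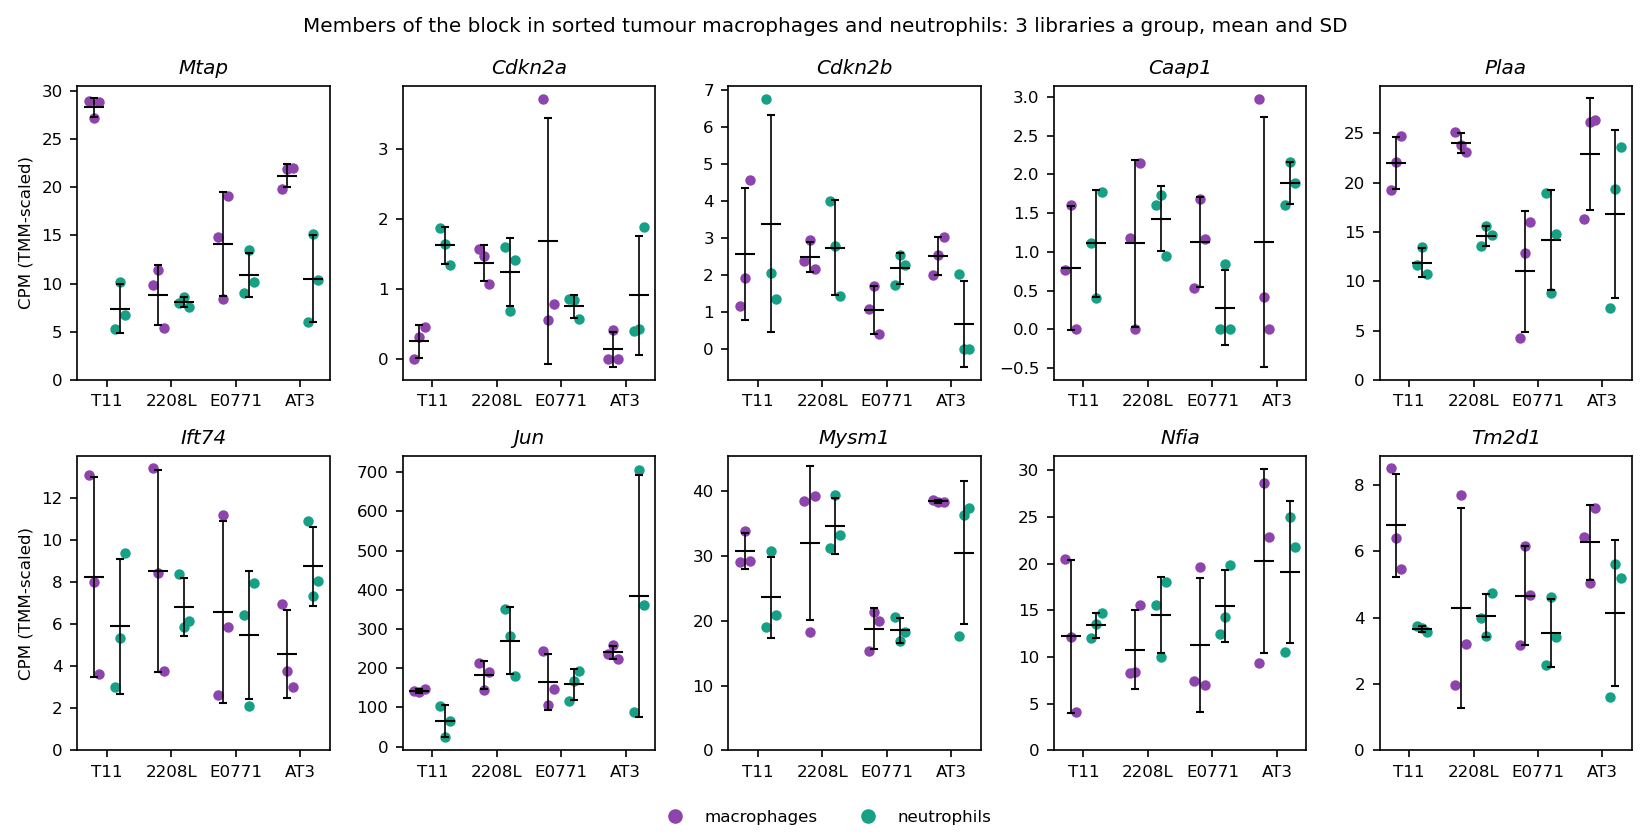
Level of each member in the sorted libraries, in CPM on a linear axis of its own for each gene, macrophages left of neutrophils within each tumour; points are libraries, horizontal lines the means of 3 and error bars the SD. Mtap in T11 macrophages (27.2 to 29 CPM) and Jun in the AT3 neutrophil libraries (88.6 to 706 CPM) stand out, and Cdkn2a and Caap1 have group means of under 2 CPM.

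Across tumours, 1 of 7 tested members differed among macrophages, where 35.5% of the 14715 genes did. Mtap had 29, 27.2 and 28.8 CPM in T11 macrophages, 19.8, 21.9 and 22 in AT3, 14.8, 8.4 and 19.1 in E0771 and 9.82, 11.4 and 5.37 in 2208L. The T11 libraries were above all others (edgeR F test, adjusted p = 0.00766). Without T11 Mtap gave an adjusted p of 0.13 in the same edgeR test and none of the 7 members was called, beside 19.2% of genes. Then 3 members, Plaa, Mysm1 and Mtap, had an unadjusted p under 0.05. Leaving out single macrophage libraries added 1 call each: Mysm1 without 2208L library 2 (edgeR adjusted p = 0.0351), Jun without E0771 library 1 (0.0112) and Plaa without E0771 library 3 (0.0427).

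Among neutrophils 1 of 7 tested members differed, where 31.4% of the 18158 genes did. Jun had 104, 24.2 and 66 CPM in T11 neutrophils, 350, 281 and 180 in 2208L, 116, 167 and 193 in E0771 and 88.6, 706 and 360 in AT3. The T11 libraries were the lowest apart from an overlap with AT3 library 1 (edgeR F test, adjusted p = 0.00395). Without T11 the adjusted p was 0.166 in the same edgeR test and no member was called, beside 14.9% of genes. Mysm1 alone had an unadjusted p under 0.05. Without AT3 library 1, Mysm1 was called as well (edgeR adjusted p = 0.0158). Cdkn2b, untested in the full fit, then passed the count filter and was called (edgeR adjusted p = 0.00734). Its counts were 0 in AT3 libraries 2 and 3, and 18, 5 and 3 in T11.

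The difference between macrophages and neutrophils itself varied by tumour for 2 of 8 tested members, Mtap and Jun. Of all genes 27.5% did, so the count is near the background. Mtap was at 3.83 times the neutrophil mean in macrophages of T11, 2.02 in AT3, 1.29 in E0771 and 1.1 in 2208L (edgeR interaction F test, adjusted p = 0.0339). Jun was at 2.2 times in T11, 1.04 in E0771, 0.677 in 2208L and 0.624 in AT3 (edgeR adjusted p = 0.0469). Both rested on T11: without it the adjusted p was 0.641 for Mtap and 0.601 for Jun in the same edgeR test, and 3.85% of genes were called. Leaving out each library in turn, Mtap was called in 16 of 24 fits (edgeR adjusted p from 0.0164 to 0.148) and Jun in 8 of 24 (0.00183 to 0.166).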

How the data were processed

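Total RNA libraries of 8 cultured lines and of macrophages and neutrophils sorted from 4 kinds of tumour, 3 per group and 48 in all, were analysed. The submitters' processing notes name bcl2fastq 2.17, STAR 2.4.2a and the build mm10. What the authors deposited is 1 table of raw counts, with a row for each gene symbol. The counting program, its annotation and its strand setting are not given in the sources used here. All columns of the table were used, and the members and lists were chosen with earlier results of these data known.

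Rows were placed by their Entrez identifiers on RefSeq GRCm38.p6 (23495 of 24054), and exon lengths came from GENCODE M21. Differences were tested with edgeR 4.0.16 in R 4.3.3: low rows were removed with filterByExpr (a count of 10, a total of 15), libraries were scaled by TMM, and quasi-likelihood tests were adjusted by Benjamini-Hochberg across the tested genes. An adjusted p under 0.05 was called. The 24 line libraries were fitted together for PyMT-N, the 21 libraries of the other lines for the tests among them, the 24 sorted libraries for macrophages against neutrophils, and the 12 libraries of each cell type for tumours. Steps were tested on simulated data. DESeq2 1.42.0, other scalings, filters and references and each library left out were alternatives. Summaries used Python 3.11.15, pandas 2.3.3 and numpy 2.4.6, and figures matplotlib 3.10.9.

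All members are named, with the 5 nearest expressed genes on each side, and of each list up to 4 called genes of largest difference at a mean log2 CPM of 3 or more, lists of up to 3 genes being given whole; 2 genes that this rule names are not reported here. The 5 genes most like the members and the 3 most like Cdkn2a follow by correlation. The test of tumour by cell type, the runs of rows and the fits without T11 were added after the data were seen. Replicate numbers were not taken to pair the samples. Residual correlations over 0.1 were found in 3 of 84 same-numbered pairs of lines, 7 of 84 of sorted groups, and 1 of the 12 pairs of a macrophage and a neutrophil library of 1 tumour, whose shared column numbers may mark 1 animal, which the labels do not say. No 2 replicates held identical values, and their chi-square per degree of freedom ran from 1.215 to 10.75 over 48 pairs.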

Additional observations from a re-analysis of the deposited data

Results flagged for a closer look

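Mtap and Jun were singled out because the difference between macrophages and neutrophils varied among the 4 tumours, by an interaction test that was added after the data were seen. They were 2 of 8 tested members, where 27.5% of all genes were called, so the count is near the background. Mtap had an adjusted p of 0.0339 in the edgeR quasi-likelihood F test, with macrophage over neutrophil means of 28.3 over 7.39 CPM in T11, 21.2 over 10.5 in AT3, 14.1 over 10.9 in E0771 and 8.85 over 8.07 in 2208L (n = 3 each). On the TMM scale all 4 ratios were above 1. In CPM outside Rn45s, the Mtap macrophage mean was below the neutrophil mean in 2208L (19.2 and 21.5) and E0771 (34.5 and 40.2). It was above the neutrophil mean in T11 (53.8 and 34.8) and AT3 (35.6 and 30.1). Jun had an adjusted p of 0.0469 in the same edgeR test, with means of 142 over 64.8 CPM in T11, 165 over 159 in E0771, 183 over 270 in 2208L and 240 over 385 in AT3. Both calls were absent without T11, whose macrophage libraries carried neutrophil marker genes. The T11 neutrophil libraries had the lowest totals, 669862 to 1084947 counts, against 1198670 to 3341097 in the other neutrophil libraries. Their receptor gene background was the highest, at 12970 to 18833 CPM outside Rn45s against 3849 to 12577. The part of these markers, totals and background in the values was not tested.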

How the results depend on the processing

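Against the C57BL/6 lines alone, differences with the other sign were Ahcy -0.01, Clns1a -0.26, Ift80 0.38, Mllt3 0.03, Inadl 0.38 and Alg6 -0.26. Against PyMT-M alone they were Ahcy -0.39, Clns1a -0.53, Ift80 0.40, Usp16 -0.21, Mllt3 0.71, Inadl 0.79 and Alg6 -0.39. No other named gene called in either fit changed sign. Uncalled genes did, such as Atg4c (-0.08 against the C57BL/6 lines). The rows at 0 in PyMT-N numbered 22 at a level of 1 CPM, against 7 at 5 or 10 CPM. The median beside the block was -0.09 (5 Mb) and 0.01 (20 Mb) before it, and -0.25 (5 Mb) after it. Of the 8 members tested between macrophages and neutrophils, 1 was called with Rn45s and Lars2 left out and 0 without T11, where 6164 genes were lower in macrophages, against 9304 with it. Without T11, 2663 genes and 0 members differed among macrophages (5222 and 1 with it) and 2390 genes and 0 members among neutrophils (5698 and 1). With each library left out, members called ran from 1 to 2 between the cell types, 1 to 2 among macrophages, 1 to 3 among neutrophils and 9 to 10 among lines. The 3 among neutrophils, without AT3 library 1, include Cdkn2b, which the full fit did not test. Genes called among neutrophils ran from 3702 (without 2208L library 2) to 7712. The causes were not tested. With replicate number as a block, which is no pairing in this design, 5810 genes were higher and 4727 lower in PyMT-N, 15319 differed among the other lines, 6120 were higher and 9265 lower in macrophages, and 10, 2, 1 and 1 members were called among lines, between cell types, among macrophages and among neutrophils, as without it. With same-numbered macrophage and neutrophil libraries of a tumour as a block, added later, 5981 genes were higher and 9077 lower, and Mtap (0.87, edgeR adjusted p = 0.000152), Plaa (0.43, 0.0348) and the interactions of Mtap (0.0395) and Jun (0.0181) were called as before. With this block and no T11, 4022 genes were higher and 6023 lower, and 0 members were called in either test. The 12 residual correlations of these pairs ran from -0.11 to 0.14, and 4 macrophage libraries correlated best with their own number. DESeq2 called 3874 genes lower in PyMT-N (4720 by edgeR) and 4482 higher and 11197 lower in macrophages (6180 and 9304 by edgeR). Counts of 0 to 18 per library limit Cdkn2a, Cdkn2b and Caap1 in sorted cells.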

Other observations

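Skint4, Skint3 and Skint9, neighbouring genes on chromosome 4 outside the block (112072016 to 112433985), had 0 counts in every library of the BALB/C lines T11, 2208L, 67NR and 4T1 and 8 to 62 counts in each library of the C57BL/6 lines. Among sorted libraries of T11 and 2208L tumours, 1 count was found, in 2208L macrophage library 2, against 5 to 63 in those of E0771 and AT3 tumours. The 2 E0771 libraries labelled BALB/C were among these, with 7 counts in macrophage library 1 and 29 in neutrophil library 1.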
